A study of Mus musculus with 16 samples.

Results

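The heat shock proteins and DnaJ chaperones were examined in the striatum of 16 mice. The set holds every row of the count tables whose symbol begins with Dnaja, Dnajb, Dnajc, Hspa or Hspb and a digit. Hsp90aa1, Hsp90ab1, Hsp90b1, Hspd1, Hspe1, Hsph1, Hsf1, Hsf2, Bag3 and Stip1 were added by name. This gave 76 of 24421 genes, chosen by name and not by value, of which 63 had enough reads to be tested. The mice were 13 months old and fell into 4 groups of 4. BACHD+Foxp2 mice carried the BACHD transgene and received a virus for Foxp2. BACHD+Con mice carried the transgene and received a control virus. Con+Foxp2 mice had the control genotype and the Foxp2 virus, and Con+Con mice had the control genotype and the control virus. BACHD is a bacterial artificial chromosome with mutant human huntingtin under its own regulatory sequences, and such mice serve as a model of Huntington disease. The sources used here give neither the type of virus nor its promoter or the time after injection. Every mouse received a virus, so no group shows the striatum without an injection.

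Molecular chaperones bind unfolded or partly folded proteins and release them in cycles driven by ATP. HSP70 proteins bind short hydrophobic stretches, DnaJ proteins (also called HSP40) bring them clients and start ATP hydrolysis, nucleotide exchange factors reset them, and HSP90 takes over late folding intermediates. The transcription factor HSF1 raises many cytosolic chaperones after heat or proteotoxic stress, while the unfolded protein response raises those of the endoplasmic reticulum (ER). In Huntington disease the mutant protein carries a long polyglutamine stretch that aggregates, and several DnaJ proteins are known to limit such aggregation in cell models.

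The 2 stress pathways act through different promoter sequences, shown here for members that carry them. Promoters are those of RefSeq on GRCm38.p6, 250 bases before to 50 bases after a start site, and 61 of the 76 members matched an entry. The others were Dnajc11, Dnajc12, Dnajc18, Dnajc2, Dnajc22, Dnajc30, Dnajc5, Dnajc5b, Hsf1, Hsp90aa1, Hsp90ab1, Hspa13, Hspa8, Hspa9 and Hspb2. The ER stress element was searched on both strands as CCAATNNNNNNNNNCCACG and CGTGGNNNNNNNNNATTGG. It stood in the promoters of Hspa5, Hsp90b1 and Dnajc3, which are 3 of 61 members (4.92%), against 37 of 27025 genes with a promoter entry (0.137%). In the sequences below, capitals mark the matched element and all read 5′ to 3′ on the strand of the gene. Hspa5 and Hsp90b1 encode the main HSP70 and HSP90 of the ER, and Dnajc3 encodes an ER DnaJ protein.
Hspa5, chr2:34772020-34772049, plus strand: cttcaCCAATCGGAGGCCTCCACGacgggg
Hsp90b1, chr10:86705510-86705694, minus strand: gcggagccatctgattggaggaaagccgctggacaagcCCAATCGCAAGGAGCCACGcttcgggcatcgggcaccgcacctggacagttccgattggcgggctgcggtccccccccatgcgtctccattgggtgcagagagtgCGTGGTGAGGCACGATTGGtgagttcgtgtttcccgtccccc
Dnajc3, chr14:118937787-118937885, plus strand: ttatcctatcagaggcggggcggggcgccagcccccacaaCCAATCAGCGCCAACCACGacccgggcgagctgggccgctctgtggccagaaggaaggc

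The heat shock element, the binding sequence of HSF1, was searched on both strands as GAANNTTCNNGAA and TTCNNGAANNTTC. It stood in the promoters of Dnajb6, Hspd1, Hspe1 and Hsph1, which are 4 of 61 members (6.56%), against 179 of 27025 genes (0.662%). Hspd1 and Hspe1, the mitochondrial HSP60 and its lid HSP10, face away from each other and share a single stretch in which both forms of the element overlap. The match in Hsph1 lay after the start site. A match is a description of letters, and the absence of a match says only that these letters were not in the window. The shared stretch of Hspd1 and Hspe1, and that of Dnajb6, are shown with the element in capitals.
Hspe1, chr1:55088053-55088082, plus strand: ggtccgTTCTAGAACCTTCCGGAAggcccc
Dnajb6, chr5:29735844-29735873, plus strand: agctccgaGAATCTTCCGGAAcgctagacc

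Gene reads per library numbered 2660395 to 3669748, and members made up 0.664% to 0.754% of them. Levels are given as CPM, reads of a gene relative to all gene reads of its library, scaled between libraries, and 3 reads in a library corresponded to 0.819 to 1.16 CPM. Foxp2 averaged 1600 ± 288 CPM in BACHD+Foxp2, 119 ± 28.6 in BACHD+Con, 4010 ± 431 in Con+Foxp2 and 118 ± 26.7 in Con+Con (SD, n = 4 each), so the virus labels held in every mouse. Foxp2 was lower in BACHD+Foxp2 than in Con+Foxp2, with a log2 fold change of -1.33 ± 0.16 (SE, edgeR adjusted p = 9.64e-05). Comparisons of the 2 genotypes under the Foxp2 virus therefore differ in the level of Foxp2 as well. The same holds for BACHD averaged over viruses (Foxp2 log2 fold change -0.66) and for the interaction of genotype and virus (-1.34). In these comparisons, genotype and the level of Foxp2 cannot be told apart. Htt averaged 553 ± 49.5 CPM in BACHD+Foxp2, 607 ± 123 in BACHD+Con, 256 ± 11.8 in Con+Foxp2 and 286 ± 27.8 in Con+Con. All 11 markers of striatal projection neurons had reads in all 16 libraries, with sums of 3560 to 7330 CPM. Markers of excitatory cortical neurons summed to 146 to 1330 CPM, those of oligodendrocytes to 2730 to 8880 CPM and those of choroid plexus and ependyma to 100 to 10200 CPM, so the libraries covered wide ranges of these markers. In bulk tissue, fewer cells of a type and less RNA per cell cannot be told apart. The labels do not give a batch.

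The striatum expressed chaperones of every compartment, and cytosolic HSP90 beta was by far the highest. Per length of exon, as RPKM (CPM divided by kilobases of annotated exon, mean ± SD of 16 mice), Hsp90ab1 stood at 560 ± 61.4. It held 23.8% of all counted reads of the set. Hsp90b1 followed at 143 ± 15.2 RPKM and Hspa5 at 65.4 ± 7.69 RPKM. Stip1, the adaptor that joins HSP70 to HSP90, was at 60.9 ± 6.30 RPKM, Hspa4, a nucleotide exchange factor, at 57.6 ± 4.66 RPKM, and Hspa9, the mitochondrial HSP70, at 57.4 ± 3.96 RPKM. These last 3 means lay within each other's SD. Hsph1, a further exchange factor, was at 53.3 ± 5.28 RPKM and Dnaja2, a cytosolic DnaJ protein, at 50.6 ± 6.37 RPKM. The highest DNAJC gene was Dnajc6, auxilin, which uncoats clathrin vesicles at synapses, at 40.6 ± 6.98 RPKM. In all, 8 tested members lay above 50 RPKM and 15 below 5 RPKM.

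For several members the level is uncertain because other genes hold the same sequence. Hspa8, the constitutive cytosolic HSP70, was at 10.3 ± 2.44 RPKM, below 33 other members. Of the 50-base windows of its annotated transcripts, 39.4% also occurred in 16 other annotated genes, most of them in Gm15459. Hsp90aa1, the inducible cytosolic HSP90, was at 42.6 ± 5.30 RPKM with 47.5% of its windows in other genes. Hspd1 was at 11.9 ± 2.59 RPKM with 42.1%, shared with 10 genes. The stress-inducible pair Hspa1a and Hspa1b had 66.3% and 62.3%, most of it with each other. Reads with more than 1 alignment made up 33.8% to 37.2% of the listed reads and are not in the gene counts. The part of shared sequence in these levels was not tested, and the values of these genes are uncertain as levels. In contrast, Hspa5, Hsph1, Hspa4 and Dnaja2 had no shared window, and Hsp90ab1 had 3.44%. In the set, 14 members shared over 20% of their windows. Exons of 18 members overlap another counted gene, among them Dnaja4 with Wdr61, Dnaja1, Dnajc1 and Hsp90b1. The sources used here do not say whether strand was used in counting, so such overlapping genes cannot be told apart.

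**Figure D1:**
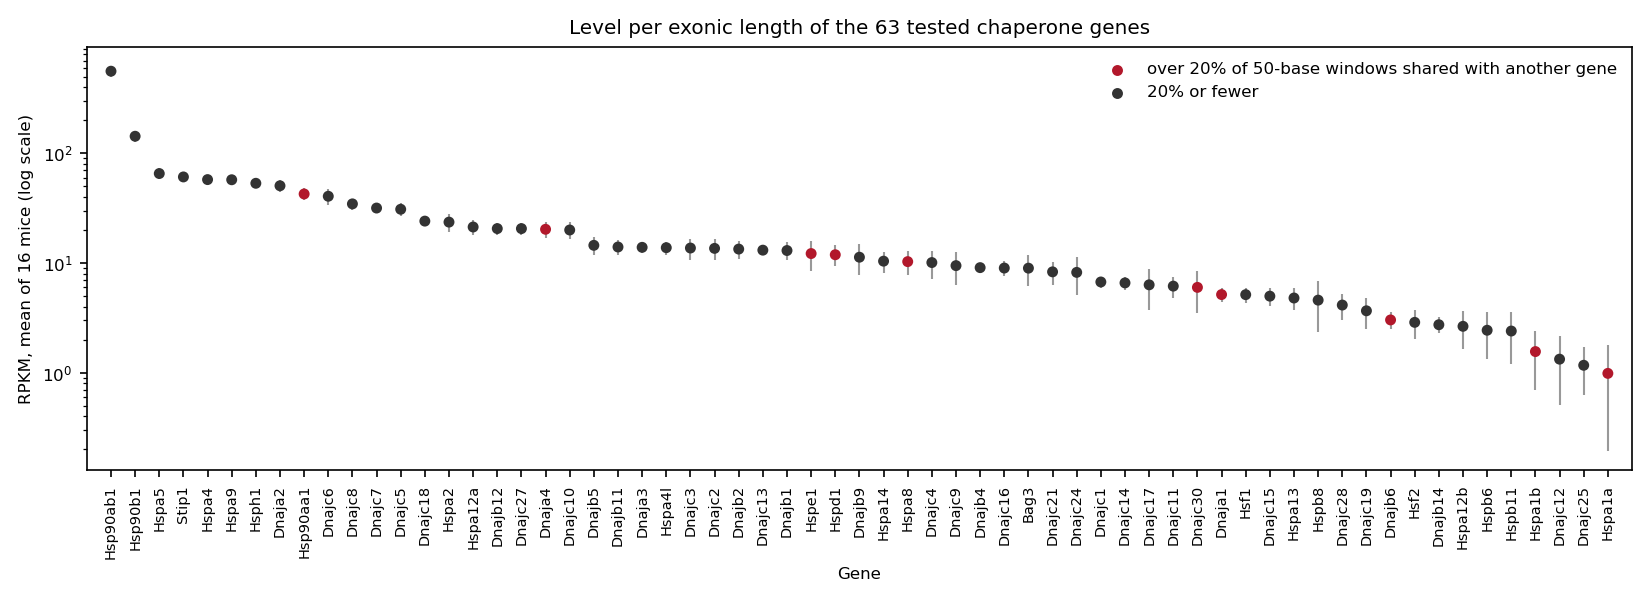
Level per exonic length of the 63 tested members (RPKM on a log axis, mean of 16 mice, bars SD), ordered from high to low, with genes that share over 20% of their 50-base windows with another gene in red. Hsp90ab1 at 560 RPKM stands above Hsp90b1 at 143 RPKM, and Hspa1a and Hspa1b lie at the low end.

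A further 13 members were too low to test and had at most 91 reads over all 16 mice and at most 5.95 CPM in a mouse. They were Dnajb13, Dnajb3, Dnajb7, Dnajb8, Dnajc22, Dnajc5b, Dnajc5g, Hspa1l, Hspb1, Hspb2, Hspb3, Hspb7 and Hspb9. Dnajb8 and Dnajc5g had 0 reads. Hspb1, the small heat shock protein HSP27, had 45 reads and 0 to 3.83 CPM, with 50.1% of its windows shared, 48.8% with Hsp25-ps1. Among the tested members the spread between mice of a group, as the coefficient of variation of CPM, ran from 7.04% for Hspa9 to 80.7% for Hspa1a, with a median of 17.3%. Hspa9, Dnajc13 at 7.73%, Dnajc1 at 8.17%, Hspa4 at 8.34% and Hsp90ab1 at 8.60% were the most even.

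In BACHD mice, no chaperone gene passed the test between the Foxp2 virus and the control virus. The count was 0 of 63 tested members by edgeR, at an adjusted p under 0.05, where 0.243% of all 13563 tested genes passed. It was also 0 by DESeq2 (0.487% of all genes) and by limma-voom (0.162%). At an unadjusted p under 0.05, 5 members (7.94%) passed by edgeR, 5 by DESeq2 and 5 by limma-voom, and 7.73% of all genes passed by edgeR. The 5 were Hsp90aa1, Dnajc1, Hsp90ab1, Dnaja1 and Dnajc11, so the share of members was close to that of all genes. The median log2 fold change of the members was 0.07, with 36 of 63 above 0, against a median of 0.00 for all tested genes, and was 0.04 without BACHD+Foxp2 mouse 2 or without BACHD+Con mouse 2. Groups did not overlap for Hsp90aa1, Dnaja1 and Dnajc11, higher with the Foxp2 virus (1.78% of all genes), and for Dnajc1, lower (2.36% of all genes). The 8 microglia markers, all with reads in each library, summed to 183 to 243 CPM in BACHD+Foxp2 and 150 to 183 CPM in BACHD+Con, without overlap. Astrocyte markers summed to 7120 to 8340 CPM in BACHD+Foxp2 and 6670 to 7200 CPM in BACHD+Con, and 1 of 8, Gfap, was called higher by edgeR. Of these 8, 6 had a log2 fold change above 0 and 2 below. Interneuron markers summed to 138 to 248 CPM in BACHD+Foxp2 and 214 to 305 CPM in BACHD+Con, and 1 of 6, Chat, was called lower. Projection neuron markers summed to 3790 to 5290 CPM in BACHD+Foxp2 and 4120 to 6550 CPM in BACHD+Con, with overlap. All 11 of them had a log2 fold change below 0 (median -0.23), and 0 were called by edgeR. Cortical excitatory neuron markers summed to 553 to 1070 CPM in BACHD+Foxp2 and 146 to 1060 CPM in BACHD+Con. Of these 9, 8 had a log2 fold change above 0 (median 0.78), and 0 were called by edgeR. The 3 libraries lowest in them were BACHD+Con mice 2 and 3 and Con+Con mouse 4. Without these 3, the smallest edgeR adjusted p of a member was 0.809, against 0.298 with all 16 mice. That fit kept only mice 1 and 4 of the BACHD+Con group, so the 2 adjusted p-values rest on different numbers of mice. The part of these cell types in the chaperone values was not tested.

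In control mice, the Foxp2 virus likewise left no member past the threshold. The count was 0 of 63 by edgeR (0.229% of all genes), DESeq2 (0.641%) and limma-voom (0.258%). At an unadjusted p under 0.05 it was 3 by edgeR (4.76%, against 7.04% of all genes), 4 by DESeq2 and 3 by limma-voom. The 3 were Dnajc11, Dnajb5 and Hspa1b. The median log2 fold change of the members was 0.00, with 32 of 63 above 0. Dnajb5, Hspa14 and Hspa1b were higher in all 4 Con+Foxp2 mice than in any Con+Con mouse (2.71% of all genes), and no member was lower in that way (2.29%). Interneuron markers (6 of 6 with reads) summed to 163 to 201 CPM in Con+Foxp2 and 249 to 326 CPM in Con+Con, without overlap. All 11 projection neuron markers had a log2 fold change below 0 (median -0.46), 9 of them at an unadjusted p under 0.05 by edgeR. Of 8 astrocyte markers, 6 lay above 0 and 2 below, 4 higher at an unadjusted p under 0.05, and 5 were higher without overlap. edgeR and limma-voom called 0 markers of these 3 lists. DESeq2 called 2 of 8 astrocyte markers, 1 of 11 projection neuron markers and 0 of 6 interneuron markers. The part of these cell types in the chaperone values of control mice was not tested.

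The BACHD transgene also left no member past the threshold under either virus. Under the control virus the count was 0 of 63 by edgeR (0.0147% of all genes), DESeq2 (0.0221%) and limma-voom (0.00737%), with 3 at an unadjusted p under 0.05 by each tool (4.76% by edgeR, against 3.44% of all genes). Those were Dnaja1, Hspb8 and Dnajc5 by edgeR. The median of the members was -0.07, with 19 of 63 above 0, while the median of all genes was 0.00. It was -0.03 without BACHD+Con mouse 1 and -0.12 without BACHD+Con mouse 2. Dnaja4 and Dnajc1 were higher (1.19% of all genes) and Dnaja1 lower (1.24%) in BACHD+Con mice without overlap with Con+Con mice. Under the Foxp2 virus the count was 0 of 63 by edgeR (0.059% of all genes), DESeq2 (0.111%) and limma-voom (0.0811%), with 2 at an unadjusted p under 0.05 by each tool, which were Dnajc11 and Hspa2 by edgeR (3.17%, against 4.18% of all genes). The median was 0.02, with 34 of 63 above 0. Dnajc10, Dnajc11 and Hspa2 were higher in BACHD+Foxp2 mice without overlap with Con+Foxp2 mice (1.4% of all genes), and none was lower (1.6%).

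Averaged over genotypes, the Foxp2 virus gave 0 of 63 members past the threshold by edgeR (1.05% of all genes), DESeq2 (1.84%) and limma-voom (1.08%). At an unadjusted p under 0.05 there were 2 by edgeR, Hsp90ab1 and Hsp90aa1 (3.17%, against 10.8% of all genes), 3 by DESeq2 and 2 by limma-voom. In this comparison edgeR called 3 of 8 astrocyte markers higher, and 2 of 6 interneuron markers and 1 of 11 projection neuron markers lower, and their part in the chaperone values was not tested. Averaged over viruses, BACHD gave 0 of 63 by edgeR (0.0369% of all genes), DESeq2 (0.059%) and limma-voom (0.0369%), and 1 at an unadjusted p under 0.05 by each tool, Hspa5 by edgeR (1.59%, against 4.05% of all genes). For the interaction, which tests whether the effect of the Foxp2 virus differed between genotypes, the count was 0 of 63 by edgeR (0% of all genes), DESeq2 (0.0295%) and limma-voom (0%). At an unadjusted p under 0.05 there were 2 by edgeR, Dnajc11 and Hspb8 (3.17%, against 3.8% of all genes), 2 by DESeq2 and 3 by limma-voom. No member separated all 8 mice of a virus or genotype from the other 8. For the virus, 0.17% of all genes did so in each direction, and for BACHD 0.0147% did so as higher and 0.0221% as lower. The comparisons share groups, so their values are not independent. In the authors' deposited tables, likewise, no member with an adjusted p had one under 0.05. Those tables give an adjusted p for 61 of the 76 members for the Foxp2 virus in BACHD mice (smallest 0.347), for 65 for the Foxp2 virus in control mice (smallest 0.421) and for 73 for BACHD under the control virus (smallest 1).

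The intervals show how large a difference these data leave possible. For the Foxp2 virus averaged over genotypes, the 95% interval lay inside a 1.5-fold change in either direction for 45 of 63 tested members and inside a 2-fold change for 57. For BACHD averaged over viruses, the numbers were 49 and 57. Within a single genotype or virus, 31 to 35 members lay inside 1.5-fold. For the interaction, 16 did. The narrowest interval was that of Hsp90ab1, with a half-width of 0.14 on the log2 scale in both averaged comparisons, and the widest that of Hspa1a, with 1.31. Differences that lie within a gene's interval were not resolved at this depth and number of mice.

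**Figure D2:**
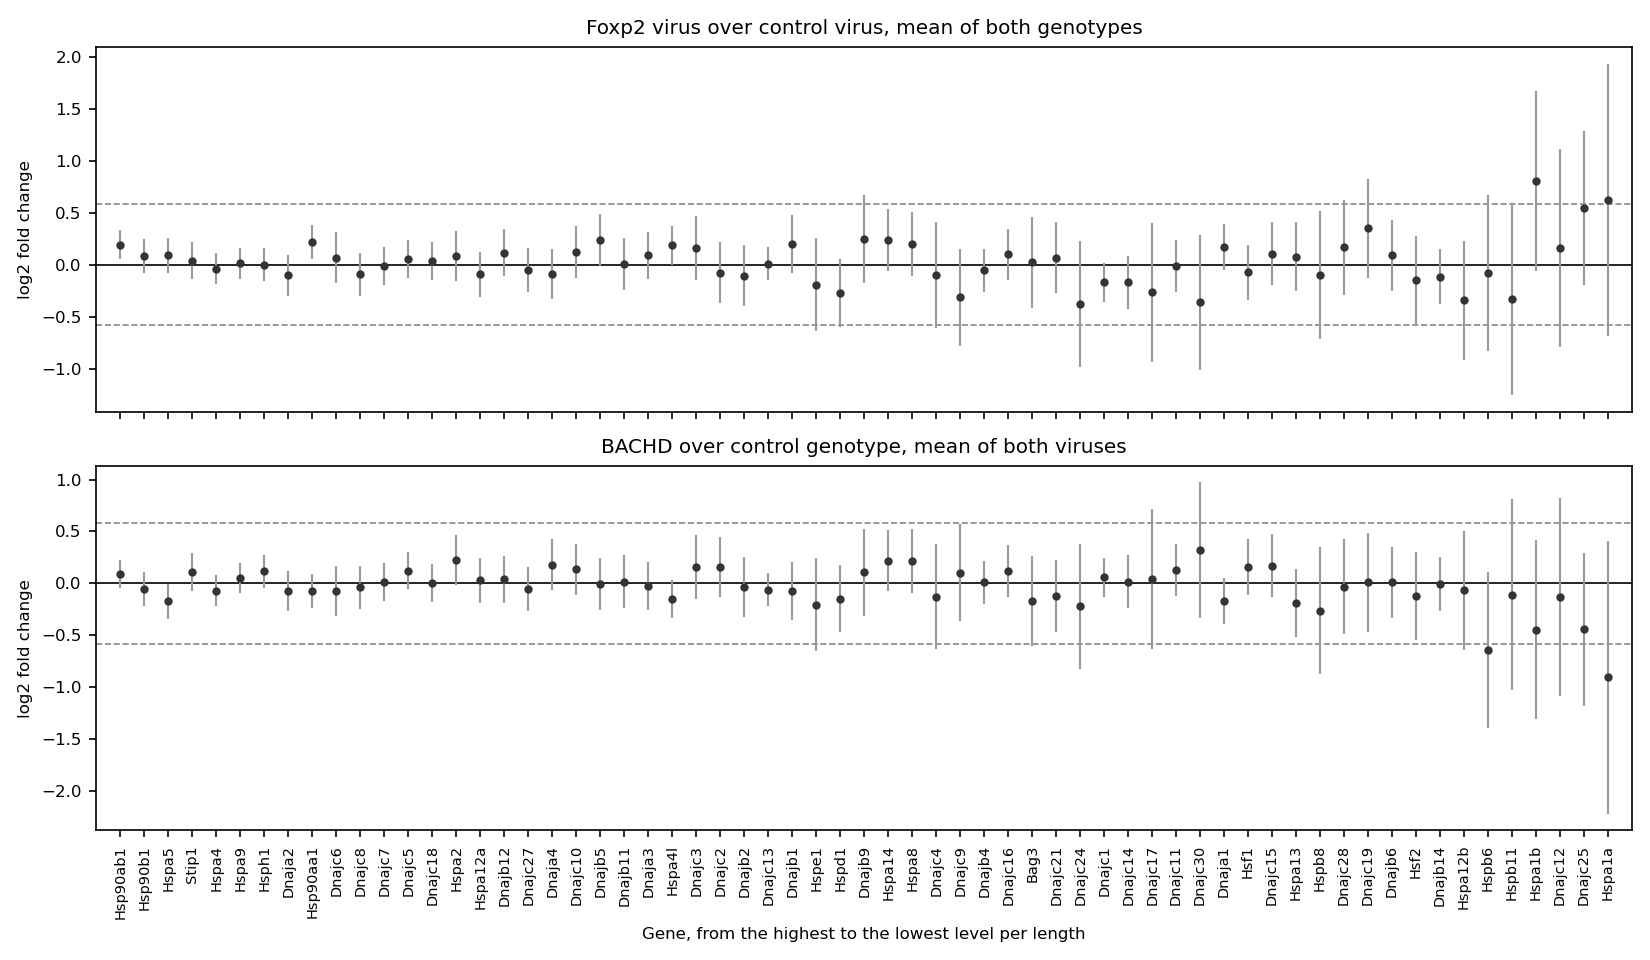
Log2 fold change with its 95% interval (edgeR) for the 63 tested members, Foxp2 virus over control virus (upper panel) and BACHD over control genotype (lower panel), ordered by level per length; the dashed lines mark 1.5-fold in either direction. The intervals widen toward the low genes at the right, and the largest averaged values belong to Hspa1b (0.81 for the virus) and Hspa1a (-0.90 for BACHD).

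Hsp90ab1 and Hsp90aa1, the cytosolic HSP90 genes, had the lowest p-values of the set for the Foxp2 virus averaged over genotypes, short of the threshold. Hsp90aa1 was at 179, 193, 194 and 173 CPM in BACHD+Foxp2 mice and 156, 130, 133 and 152 CPM in BACHD+Con mice. It was at 175, 183, 184 and 158 CPM in Con+Foxp2 mice and 192, 142, 158 and 174 CPM in Con+Con mice. All BACHD+Foxp2 mice lay above all BACHD+Con mice, while the control mice of both viruses overlapped. The log2 fold change for the Foxp2 virus was 0.37 ± 0.11 (SE, edgeR adjusted p = 0.298) in BACHD mice and 0.07 (95% interval -0.16 to 0.30) in control mice. Over the alternative fits, the value in BACHD mice ran from 0.26 to 0.42. The difference of the 2 effects was 0.30 (interval -0.03 to 0.63, adjusted p = 1). Averaged over genotypes it was 0.22 ± 0.08 (adjusted p = 0.265).

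Hsp90ab1, the constitutive and more abundant form, was at 1610, 1910, 1820 and 2150 CPM in BACHD+Foxp2 mice and 1680, 1410, 1590 and 1710 CPM in BACHD+Con mice. It was at 1730, 1710, 1790 and 1640 CPM in Con+Foxp2 mice and 1450, 1460, 1670 and 1580 CPM in Con+Con mice. Both pairs of groups overlapped, with BACHD+Foxp2 mouse 1 below 2 of the BACHD+Con mice and Con+Foxp2 mouse 4 below Con+Con mouse 3. The log2 fold change was 0.19 ± 0.07 averaged over genotypes (SE, edgeR adjusted p = 0.222), 0.23 in BACHD mice and 0.16 in control mice. The sum of Hsp90aa1, Hsp90ab1 and Stip1 averaged 2190 ± 235 CPM in BACHD+Foxp2, 1870 ± 145 in BACHD+Con, 2020 ± 83.1 in Con+Foxp2 and 1830 ± 110 in Con+Con (SD, n = 4 each), with overlap in each comparison. Stip1 by itself had a log2 fold change of 0.04 (interval -0.14 to 0.22) for the virus.

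**Figure D3:**
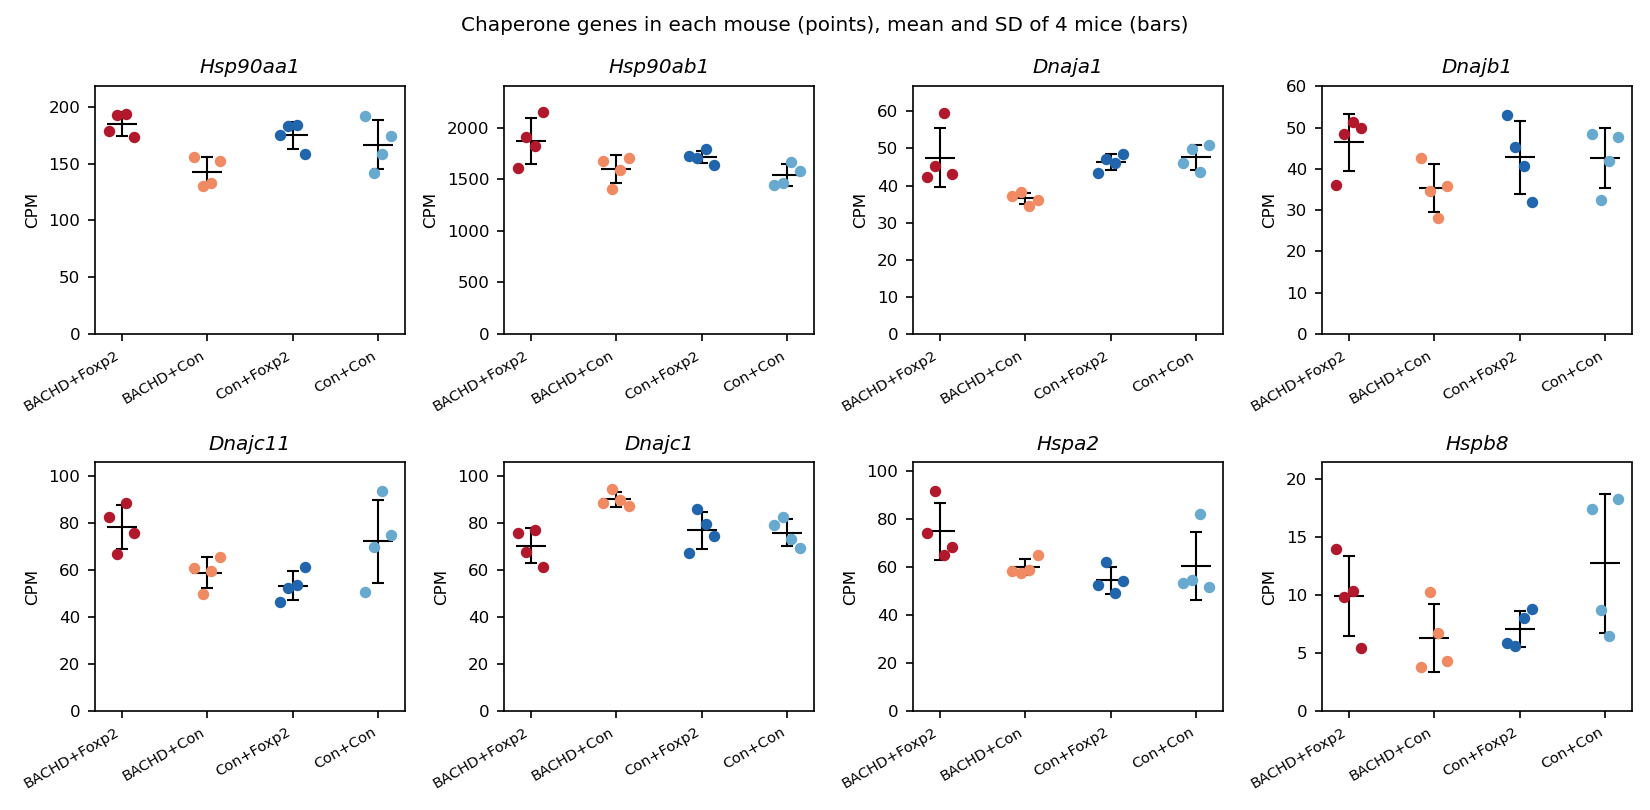
CPM of 8 members in each mouse (points), with the mean and SD of 4 mice (bars), in BACHD+Foxp2, BACHD+Con, Con+Foxp2 and Con+Con, each on an axis from 0. Hsp90aa1, Dnaja1 and Dnajc11 do not overlap between BACHD+Foxp2 and BACHD+Con, and the 3 other groups of Dnaja1 lie above BACHD+Con.

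Among the HSP70 genes other than Hspa5 and Hspa9, levels differed widely and no member passed the test. Hspa2, an HSP70 best known from male germ cells, was at 74.3, 92, 65 and 68.3 CPM in BACHD+Foxp2 mice, 58.4, 57.5, 58.8 and 65.1 CPM in BACHD+Con mice, 52.5, 62.2, 49.1 and 54.1 CPM in Con+Foxp2 mice, and 53.4, 54.7, 82 and 51.7 CPM in Con+Con mice. BACHD+Foxp2 mice lay above all Con+Foxp2 mice, with a log2 fold change of 0.46 ± 0.16 (SE, edgeR adjusted p = 0.998), and Con+Con mouse 3 lay far above its group. Hspa8 averaged 52.7 ± 16.2 CPM in BACHD+Foxp2, 42.9 ± 10.6 in BACHD+Con, 42.4 ± 5.87 in Con+Foxp2 and 39.6 ± 3.24 in Con+Con, and all groups overlapped. Hspa12a, a divergent HSP70 of the brain, lay between 153 and 256 CPM in the 16 mice. Hspa13, an HSP70 of the ER and vesicles, lay between 20 and 47.9 CPM, and Hspa14, the ribosome-associated HSP70, between 31.2 and 65.1 CPM. Hspa14 averaged 44.0 ± 6.35 CPM in Con+Foxp2 and 34.3 ± 2.24 in Con+Con, without overlap, with a log2 fold change of 0.35 (edgeR adjusted p = 0.795). The list of 9 HSP70 genes, with Hspa12a and Hspa13 among them, summed to 395 to 490 CPM in BACHD+Foxp2 and 374 to 382 CPM in Con+Foxp2, without overlap. Its sums overlapped in the other comparisons. Hspa12a alone was at 156 to 256 CPM in BACHD+Foxp2 and 163 to 194 CPM in Con+Foxp2. In this comparison 1.4% of all genes were higher without overlap.

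The heat-inducible Hspa1a and Hspa1b were close to the detection limit. Hspa1b was at 0.732, 5.56, 4.47 and 5.1 CPM in BACHD+Foxp2 mice and 2.06, 3.3, 2.69 and 4.24 CPM in BACHD+Con mice. It was at 9.34, 5.24, 8.29 and 6.55 CPM in Con+Foxp2 mice and 4.43, 1.93, 4.82 and 1.12 CPM in Con+Con mice. All Con+Foxp2 mice lay above all Con+Con mice, with a log2 fold change of 1.23 ± 0.58 (SE, edgeR adjusted p = 0.694), while the BACHD groups overlapped. Hspa1a lay between 0 and 7.29 CPM, with 139 reads over the 16 mice, and its groups overlapped in every comparison. Since the 2 genes share most of their sequence, their levels rest on the reads that aligned to 1 of them alone. The 13 members known as heat-inducible, a list that holds these 2, summed to 1100 ± 61.6 CPM in BACHD+Foxp2, 1020 ± 46 in BACHD+Con, 1080 ± 101 in Con+Foxp2 and 1030 ± 85 in Con+Con, and the groups overlapped in each comparison. Of the 12 tested, 9 had a log2 fold change above 0 for the virus averaged over genotypes (median 0.18), and 9 had one below 0 for BACHD averaged over viruses (median -0.15), with 0 called.

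None of the 4 nucleotide exchange factors of HSP70 passed a test, and the abundant ones had narrow intervals. Hsph1 averaged 400 ± 26.6 CPM in BACHD+Foxp2, 406 ± 42.2 in BACHD+Con, 374 ± 37.8 in Con+Foxp2 and 370 ± 45.9 in Con+Con (SD, n = 4 each). Its log2 fold change was -0.00 (95% interval -0.16 to 0.16) for the virus and 0.12 (-0.04 to 0.28) for BACHD. Hspa4 gave -0.04 (-0.19 to 0.11) for the virus and -0.07 (-0.22 to 0.08) for BACHD, so changes of 1.5-fold lay outside both intervals of each gene. Hspa4l gave 0.18 ± 0.09 (SE, edgeR adjusted p = 0.461) for the virus, with 146 to 205 CPM in Con+Foxp2 and 130 to 183 CPM in Con+Con. Bag3, which with the small heat shock protein Hspb8 directs clients to autophagy, lay between 14.4 and 39.4 CPM and overlapped in every comparison.

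The cytosolic DnaJ proteins hand clients to HSP70, and none passed a test. Dnaja1 was at 42.4, 45.2, 59.5 and 43.1 CPM in BACHD+Foxp2 mice and 37.1, 38.3, 34.6 and 36.2 CPM in BACHD+Con mice. It was at 43.5, 47.1, 46.1 and 48.6 CPM in Con+Foxp2 mice and 46, 49.9, 43.7 and 51 CPM in Con+Con mice. All 4 BACHD+Con mice lay below the other 12 mice, as they did for 0.0811% of all genes. The log2 fold change was 0.38 ± 0.15 for the Foxp2 virus in BACHD mice (SE, edgeR adjusted p = 0.544) and -0.38 ± 0.15 for BACHD under the control virus (adjusted p = 1). These 2 values share the BACHD+Con mice. The interaction was 0.42 (95% interval -0.03 to 0.87, adjusted p = 1), and without BACHD+Foxp2 mouse 3, the highest, the value for the virus in BACHD mice was 0.26.

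Dnajb1, the classical HSP40, was at 36.2, 48.4, 51.3 and 49.8 CPM in BACHD+Foxp2 mice, 42.6, 34.7, 28.2 and 35.8 CPM in BACHD+Con mice, 53.1, 45.2, 40.8 and 31.9 CPM in Con+Foxp2 mice, and 48.4, 32.5, 41.8 and 47.6 CPM in Con+Con mice. All groups overlapped, and the log2 fold change for the virus in BACHD mice was 0.39 (95% interval -0.00 to 0.79, edgeR adjusted p = 0.651). Dnajb5 was at 110, 82.1, 95.5 and 102 CPM in Con+Foxp2 mice and 74.9, 81.1, 73.3 and 73.3 CPM in Con+Con mice. These groups did not overlap (log2 fold change 0.36 ± 0.17, adjusted p = 0.691), whereas the BACHD groups did, at 61.5 to 116 CPM in BACHD+Foxp2 and 61.5 to 101 CPM in BACHD+Con. Dnajb6 and Dnajb2, which suppress polyglutamine aggregation in cell models, passed no test, and their groups overlapped. Dnajb6 averaged 20.9 ± 2.67 CPM in BACHD+Foxp2, 16.1 ± 2.56 in BACHD+Con, 17.0 ± 3.14 in Con+Foxp2 and 19.4 ± 2.78 in Con+Con, and Dnajb2 averaged 53.5 ± 13.4, 59.3 ± 14.3, 56.5 ± 4.66 and 59.1 ± 12 CPM in the same order of groups. For BACHD averaged over viruses, the log2 fold change was 0.01 (-0.33 to 0.35) for Dnajb6 and -0.04 (-0.33 to 0.26) for Dnajb2. Dnaja2, the most abundant DnaJ gene per length, lay between 114 and 181 CPM, and Dnaja4, 42.7% of whose windows lie in the overlapping Wdr61, between 52.4 and 97.9 CPM.

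In the ER, Hspa5 and Hsp90b1 varied together from mouse to mouse, and neither passed a test between groups. Hspa5 was at 267, 256, 272 and 289 CPM in BACHD+Foxp2 mice, 210, 268, 258 and 260 CPM in BACHD+Con mice, 316, 273, 340 and 266 CPM in Con+Foxp2 mice, and 310, 282, 238 and 319 CPM in Con+Con mice. All groups overlapped, and the log2 fold change for BACHD averaged over viruses was -0.17 ± 0.08 (SE, edgeR adjusted p = 0.999). Hsp90b1 was at 608, 524, 601 and 598 CPM in BACHD+Foxp2 mice, 480, 629, 527 and 542 CPM in BACHD+Con mice, 562, 575, 677 and 585 CPM in Con+Foxp2 mice, and 657, 513, 472 and 644 CPM in Con+Con mice. Its log2 fold change was 0.08 (95% interval -0.08 to 0.25) for the virus and -0.06 (-0.22 to 0.11) for BACHD.

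Over the 16 mice, log2 CPM of Hspa5 and Hsp90b1 gave a Pearson r of 0.78 (permutation p = 0.00029, Benjamini-Hochberg adjusted 0.00116) and a Spearman rho of 0.71 (permutation p = 0.00238, adjusted 0.00952), adjusted over the 4 relations tested. That adjustment does not cover the 861 pairs of abundant members, among which this pair had rank 2. A choice of the pair for its value is therefore not allowed for in these p-values. Without the 2 mice farthest from the median of Hsp90b1, r was 0.64, and after removing group means it was 0.80. Dnajc3 gave r = -0.09 with Hspa5 (permutation p = 0.729, adjusted 0.729, rho -0.25) and 0.10 with Hsp90b1 (permutation p = 0.696, adjusted 0.729, rho -0.07). The divergent genes Hspd1 and Hspe1 gave r = 0.45 (permutation p = 0.0794, adjusted 0.159, rho 0.34) and -0.02 without the 2 farthest mice. The choroid plexus and ependyma markers, led by Ttr, fell into 7 libraries at 2620 to 10200 CPM and 9 at 100 to 391 CPM. Hspa5 and Hsp90b1 gave r = 0.87 within the 7 (exact permutation p = 0.00278) and 0.64 within the 9 (exact permutation p = 0.056). The exact p-values within these classes were not adjusted, and the choice of the pair is not allowed for in them either. Dnajc3 gave r = 0.04 with Hspa5 and 0.41 with Hsp90b1 within the 7 (exact permutation p = 0.928 and 0.389), and -0.17 and -0.12 within the 9 (exact permutation p = 0.656 and 0.749). Hsp90b1 ran from 472 to 677 CPM with a median of 629 in the 7, and from 480 to 608 CPM with a median of 542 in the 9. With that marker class as a term in the fit, its log2 value for Hsp90b1 was 0.17 (edgeR adjusted p = 0.652).

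**Figure D4:**
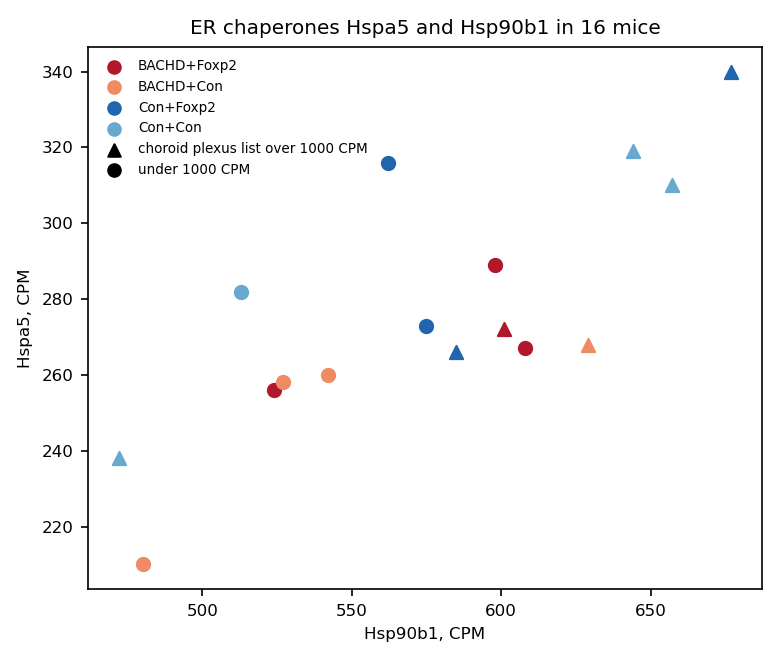
CPM of Hspa5 against Hsp90b1 in the 16 mice, coloured by group, with triangles for libraries whose choroid plexus and ependyma markers exceeded 1000 CPM. The points rise together (r = 0.78 on log2 CPM), and the groups are intermixed.

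Of the DnaJ proteins of the ER, Dnajc1 was highest in BACHD+Con mice, by a small margin. It was at 75.7, 67.4, 77.1 and 61.2 CPM in BACHD+Foxp2 mice, 88.7, 94.5, 90 and 87.1 CPM in BACHD+Con mice, 67.3, 86.1, 79.6 and 74.3 CPM in Con+Foxp2 mice, and 79.1, 82.4, 73 and 69.2 CPM in Con+Con mice. The lowest BACHD+Con mouse, at 87.1 CPM, lay just above the highest of the other 12, at 86.1 CPM, and the BACHD+Con mice lay above all others for 0.059% of all genes. Dnaja1 and Dnajc1 were the 2 members of 63 for which a single group of 4 stood outside the other 12 mice, and both were noticed for their values. For BACHD+Foxp2 the count was 0 in each direction (0.0737% of all genes higher and 0.111% lower), as for Con+Foxp2 (0.177% and 0.0811%) and Con+Con (0.0221% and 0.059%). Its log2 fold change was -0.36 ± 0.13 for the Foxp2 virus in BACHD mice (SE, edgeR adjusted p = 0.459) and 0.25 (95% interval -0.02 to 0.51, adjusted p = 1) for BACHD under the control virus. Dnajc10, a disulfide reductase, averaged 113 ± 3.82 CPM in BACHD+Foxp2 and 95.4 ± 14.4 in Con+Foxp2, without overlap (log2 fold change 0.25, edgeR adjusted p = 0.998). Dnajc3 lay between 44.7 and 90 CPM and Dnajb9, which binds Hspa5 and is a known target of the unfolded protein response, between 13.4 and 52.6 CPM, both with overlap in each comparison. Over all 13 ER members the sum was 1520 ± 24.4 CPM in BACHD+Foxp2, 1420 ± 103 in BACHD+Con, 1520 ± 92 in Con+Foxp2 and 1470 ± 129 in Con+Con, again with overlap.

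The mitochondrial members held the lowest p-value of the set in the interaction. Dnajc11, a DnaJ protein of the mitochondrial membranes, was at 82.7, 66.8, 88.8 and 75.6 CPM in BACHD+Foxp2 mice and 60.8, 49.9, 59.4 and 65.5 CPM in BACHD+Con mice. It was at 46.4, 52.4, 53.4 and 61.2 CPM in Con+Foxp2 mice and 50.4, 69.8, 93.9 and 74.8 CPM in Con+Con mice. BACHD+Foxp2 mice lay above all BACHD+Con and all Con+Foxp2 mice, while Con+Con mouse 1 lay inside the range of Con+Foxp2. The log2 fold change for the virus was 0.41 ± 0.17 in BACHD mice (SE, edgeR adjusted p = 0.554) and -0.44 ± 0.17 in control mice (adjusted p = 0.549). Without Con+Con mouse 3, the highest of the 16, the value in control mice was -0.28. The difference of the 2 was 0.85 ± 0.24 (SE, edgeR adjusted p = 1).

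Hspa9 was the most even gene of the set, at 258 ± 19.9 CPM in BACHD+Foxp2, 245 ± 20.1 in BACHD+Con, 239 ± 19.0 in Con+Foxp2 and 247 ± 7.50 in Con+Con (SD, n = 4 each). Its log2 fold change was 0.01 (95% interval -0.13 to 0.16) for the virus and 0.05 (-0.10 to 0.19) for BACHD. Hspd1 lay between 19.3 and 43.5 CPM and gave -0.27 (-0.60 to 0.05, edgeR adjusted p = 0.558) for the virus. Hspe1 lay between 10.7 and 33.5 CPM and gave -0.19 (-0.64 to 0.25). Changes of 1.5-fold were outside the intervals for Hspa9. For the virus, a 1.5-fold decrease lay inside the intervals of Hspd1 and Hspe1, and a 1.5-fold increase lay outside them.

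A list of 7 DnaJ genes was drawn up for clathrin-coated and synaptic vesicles and endosomes, and it also holds Dnajc14 and Dnajc27. Of these 7, 5 were tested and none was called, while Dnajc5b and Dnajc5g had too few reads. Dnajc5, the cysteine string protein of synaptic vesicles, averaged 216 ± 33.3 CPM in BACHD+Foxp2, 232 ± 31.9 in BACHD+Con, 220 ± 20.3 in Con+Foxp2 and 192 ± 15.9 in Con+Con (SD, n = 4 each). For BACHD under the control virus it had a log2 fold change of 0.27 ± 0.12 (SE, edgeR adjusted p = 1), with overlap, and 0.18 without BACHD+Con mouse 1. Under the Foxp2 virus it was -0.03 (95% interval -0.28 to 0.23). Dnajc6 ranged from 159 to 315 CPM, with both extremes in BACHD+Con. These were mice 2 and 4, whose cortical neuron markers summed to 146 and 1060 CPM. Dnajc13, which acts in endosome sorting, averaged 157 ± 13.2 CPM in BACHD+Foxp2, 151 ± 13.5 in BACHD+Con, 158 ± 14.5 in Con+Foxp2 and 162 ± 4.49 in Con+Con. Its log2 fold change was 0.01 (-0.15 to 0.17) for the virus and -0.06 (-0.22 to 0.10) for BACHD.

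Small heat shock proteins hold unfolded proteins without ATP, and 3 of the 8 Hspb genes of the set had enough reads to be tested. The alpha-crystallins of the same family have other symbols and are not in the set. Hspb8 was at 13.9, 9.82, 10.3 and 5.42 CPM in BACHD+Foxp2 mice, 3.78, 10.2, 6.72 and 4.24 CPM in BACHD+Con mice, 5.8, 5.56, 7.96 and 8.74 CPM in Con+Foxp2 mice, and 17.4, 8.69, 6.43 and 18.2 CPM in Con+Con mice. All groups overlapped, and Con+Con mice 1 and 4 held the 2 highest values. For BACHD under the control virus its log2 fold change was -1.01 ± 0.42 (SE, edgeR adjusted p = 1), and the interaction was 1.49 ± 0.59 (adjusted p = 1). Without Con+Con mouse 1 or 4 in turn, and without each other mouse, the value for BACHD under the control virus ran from -1.35 to -0.80.

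The heat shock factors themselves were transcribed at modest levels. Hsf1 averaged 39.8 ± 4.92 CPM in BACHD+Foxp2, 37.1 ± 5.15 in BACHD+Con, 31.6 ± 5.16 in Con+Foxp2 and 37.7 ± 6.35 in Con+Con (SD, n = 4 each). Its log2 fold change was -0.08 (95% interval -0.34 to 0.19) for the virus and 0.16 (-0.11 to 0.42) for BACHD. Hsf2 lay between 14.5 and 42.5 CPM, and its groups overlapped in every comparison. HSF1 is regulated largely at the protein level, so its transcript is not a measure of its activity.

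Genes of related systems outside the set, and immediate early genes, also gave no call. Of the TRiC chaperonin, which folds actin and tubulin, 8 genes were tested, of prefoldin 6, of the co-chaperones of HSP70 and HSP90 30, of further ER stress genes 20 and of immediate early genes 11. In each of the 7 comparisons 0 of these were called by edgeR, DESeq2 or limma-voom. At an unadjusted p under 0.05 by edgeR, a comparison held 0 to 1 of the TRiC genes, 0 to 1 of prefoldin, 0 to 2 of the co-chaperones, 0 to 1 of the ER stress genes and 0 to 3 of the immediate early genes. The 3 immediate early genes, out of 11, were Dusp1, Egr2 and Npas4, with log2 fold changes below 0 for BACHD averaged over viruses, where 4.05% of all genes passed, and under the Foxp2 virus, where 4.18% passed. The TRiC genes summed to 887 ± 46.5 CPM in BACHD+Foxp2, 880 ± 18.5 in BACHD+Con, 885 ± 31.7 in Con+Foxp2 and 894 ± 34.9 in Con+Con (SD, n = 4 each), and all comparisons of these sums overlapped. The 76 chaperone genes together summed to 7340 ± 234 CPM in BACHD+Foxp2, 6860 ± 198 in BACHD+Con, 7090 ± 224 in Con+Foxp2 and 6900 ± 140 in Con+Con, with overlap in each comparison.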

How the data were processed

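Striatal RNA of 16 mice was sequenced, and the authors deposited 1 count table a mouse, with whole reads per gene symbol. Per the submitters' processing notes, STAR 2.4.0, HTSeq, DESeq2 and build mm10 were used. The deposited log2 fold changes and p-values of the authors' own comparisons were used for comparison only. The 5 closing lines of each count table, for reads not assigned to a gene, stayed out of library sizes: reads in genes were 22.5% to 24.7% and reads outside features 38.7% to 43.4% of the listed reads.

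The main test was edgeR's quasi-likelihood test, version 4.0.16 in R 4.3.3 (TMM scaling, filterByExpr, 1 fit of 16 libraries with a mean per group, 12 residual degrees of freedom, two-sided, Benjamini-Hochberg over 13563 genes). DESeq2 1.42.0 and voom in limma 3.58.1 were alternatives. Standard errors were derived from the fold change and the test statistic. In simulated counts, 186 of 200 genes changed 3-fold were recovered, with 4 false calls, for the Foxp2 virus in control mice over 13319 genes. The changed genes were drawn only from those above a minimum level. The recovery therefore does not cover the low members or changes smaller than 3-fold. GENCODE M21 on GRCm38 gave exon lengths and overlaps.

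The members and lists were chosen with earlier results of these data known. Genes named were a panel of 33 and the 5 lowest p-values of each comparison, 38 in all; further members are named where groups did not overlap, where a value is a range, or by level. No 2 libraries agreed within counting noise (120 pairs). The p-values measure the spread between these mice.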

Additional observations from a re-analysis of the deposited data

Results flagged for a closer look

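In 8 of 156 sets of 4 mice (38 genes and the sum of the 76 members, in 4 groups), a single mouse stood far from the other 3; chance flags about 1 in 20 such sets. Dnaja1 was at 59.5 CPM in BACHD+Foxp2 mouse 3, against 42.4 to 45.2 CPM in the other 3. Hsp90b1 was at 524 CPM in BACHD+Foxp2 mouse 2, against 598 to 608 CPM. Hspa4 was at 372 CPM in BACHD+Foxp2 mouse 1, against 283 to 294 CPM. Dnajc3 was at 44.7 CPM in BACHD+Con mouse 3, against 75.3 to 80.9 CPM. Hspa2 was at 65.1 CPM in BACHD+Con mouse 4, against 57.5 to 58.8 CPM, and at 82 CPM in Con+Con mouse 3, against 51.7 to 54.7 CPM. Dnajb9 was at 22.5 CPM in Con+Foxp2 mouse 3, against 29.3 to 30.1 CPM. Dnajb6 was at 15.3 CPM in Con+Con mouse 4, against 20.6 to 20.9 CPM.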

How the results depend on the processing

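The count of members past the threshold was 0 in all 7 comparisons and stayed 0 in all 172 alternative values (DESeq2 size factors, no low-count filter, DESeq2, limma-voom, a fit of the compared groups only, each library left out in turn, without the 3 libraries lowest in cortical neuron markers, and the replicate block). Added after seeing the data were a fit without the 2 libraries highest in choroid plexus markers and a fit with that marker class as a term. The smallest adjusted p of any member over these alternatives was 0.117, for the Foxp2 virus averaged over genotypes without BACHD+Foxp2 mouse 1. The values of the 38 named genes, except Hspb1, which was not tested, stayed on their side of the threshold in all 6360 alternative values. Of these values, 318 changed sign. The replicate numbers did not pair the mice: correlations of the same-numbered mice ran from -0.168 to 0.102 and 1 of 16 libraries correlated best with its own number. With the replicate block, 0 members were called in each comparison, and the whole-table counts were 21 for the Foxp2 virus in control mice, 22 for it in BACHD mice and 133 averaged over genotypes. The whole-table counts moved more: 31, 33 and 143 by edgeR in the same order, 87, 66 and 249 by DESeq2, 75, 53 and 208 without the filter, and 21, 6 and 61 without the libraries lowest in cortical markers. For BACHD they were 2 under the control virus, 8 under the Foxp2 virus and 5 averaged over viruses, and 3, 15 and 8 by DESeq2, while the interaction gave 0 by edgeR, 4 by DESeq2 and 3 without the filter. With each library left out in turn they ran from 10 (Con+Foxp2 mouse 2 left out) to 46 (Con+Con mouse 3) for the Foxp2 virus in control mice, from 9 (BACHD+Con mouse 3) to 32 (Con+Con mouse 3) in BACHD mice and from 102 (BACHD+Con mouse 3) to 202 (Con+Con mouse 3) averaged over genotypes. Depth limits the low genes most: Hspa1a had 139 reads in all, and reads with several alignments are not in the counts of genes that share sequence.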

Other observations

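Pairs of abundant chaperone genes were compared over the 16 mice, as a description with no test, since the pairs named were chosen for their values. Of 861 pairs among the 42 members whose log2 CPM averaged 5 or more, the median Pearson r was 0.00. The highest was 0.78 for Dnajb1 and Hsp90aa1, both known targets of HSF1, next to 0.78 for Hsp90b1 and Hspa5. Hsp90aa1 and Hspa4l followed at 0.72, Hsph1 and Stip1 at 0.66, and Dnajc6 and Hspa12a at 0.66. In BACHD+Con mouse 2, lowest in cortical neuron markers (146 CPM), Dnajc6 and Hspa12a were at 159 and 153 CPM. In Con+Con mouse 3, highest in these markers (1330 CPM), they were at 298 and 246 CPM. The part of cortical tissue in this pair was not tested. The values of a mouse share its library, depth and tissue composition.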
